A study of Mus musculus with 7 samples.

Results

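Integrin subunits are the transmembrane receptor chains by which a muscle cell holds on to the matrix around it. The levels of 10 of their genes (Itga3, Itga4, Itga5, Itga6, Itga7, Itga9, Itgav, Itgb1, Itgb3 and Itgb5) were followed in C2C12 cells, a mouse myoblast line that fuses into myotubes in differentiation medium. The rows were found by gene symbol, and 9 of the genes were read out, as 9 of the 11642 rows of the expression table. Itga9 has no RPKM analysed here. The cells of all 4 RNA-Seq samples had been transfected with siRNA at 30 nM and were harvested at day 2 of differentiation. In 2 samples (si-SCR) the siRNA was a scramble control, and in 2 samples (si-SMaRT) it was siRNA #1 against lnc-SMaRT, a cytoplasmic long non-coding RNA of skeletal muscle. The study used 2 independent cell populations, and whether each received both siRNAs is not given in the sources used here. RNA was also pulled down with lnc-SMaRT probes and, as a control, with LacZ probes, in 1 library each beside an input library.

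An integrin is made of an alpha chain and a beta chain. Outside the cell the pair binds laminin, fibronectin or related proteins, and inside it the tail of the beta chain binds talin and kindlin, which tie it to actin. In skeletal muscle the laminin receptor made of Itga7 and Itgb1 anchors the fibre to its basement membrane, and Itga7 is known to increase as myoblasts differentiate. Itga6 and Itga3 also encode laminin receptor chains, Itga5 encodes the chain of the classical fibronectin receptor, and Itga4 encodes a chain that binds fibronectin and VCAM1. Itgav encodes a chain that pairs with several beta chains, among them Itgb1, Itgb3 and Itgb5, and binds vitronectin and other proteins with an RGD motif.

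The siRNA that separates the groups is shown because it is the only designed difference between them. Its strand identical to lnc-SMaRT is given 5′ to 3′ in the letters of the study's oligonucleotide list.
si-SMaRT-1: gagaagcagaacaaacagaua
The 21 bases matched nucleotides 878 to 898 of the lnc-SMaRT transcript of 1409 nt, in exon 4, at chrX:12340293-12340313 on the minus strand of GRCm38. The targeted RNA had an RPKM, the number of reads scaled by gene length and library size, of 19.1 and 15.9 in si-SCR 1 and 2 and of 2.88 and 3.65 in si-SMaRT 1 and 2. Lnc-SMaRT was thus lower in both depleted samples, with a log2 fold change of -2.39 ± 0.28 (SE, n = 2 per group, limma, adjusted p = 0.000882). The deposited values corresponded to 13150954 and 14501372 reads in the si-SCR samples and to 11127454 and 14168507 in the si-SMaRT samples.

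The cells carried the markers of differentiating muscle. All 10 skeletal muscle markers were measured, and their summed RPKM was 11119 to 11175 in si-SCR and 5185 to 7707 in si-SMaRT. In the limma test described below 0 of the 10 passed the threshold, and 8 log2 fold changes were below 0 and 2 above. An unadjusted p below 0.05 was found for 5 (9.09% of all rows had one). Of these, 4 were lower in si-SMaRT and Myh8 was higher. Limma with voom on the recovered reads called Ckm and Tnnc2, where 0.983% of all rows passed. Limma with the GC trend removed called Ckm (adjusted p = 0.0306), where 4.6% of rows passed. Each of these genes was lower in si-SMaRT. Myog, which encodes the differentiation factor myogenin, had 1015 and 1114 RPKM in si-SCR and 923 and 640 in si-SMaRT. Of the 5 undifferentiated myoblast markers tested, Id3 and Ccnd1 passed (0.505% of all rows did) and were higher in si-SMaRT. The groups overlapped for the others, Myf5, Id1 and Msx1. The list's summed RPKM was 43.9 to 49.8 in si-SCR and 57.9 to 63.3 in si-SMaRT. The proliferation markers summed to 111 to 129 RPKM in si-SCR and 131 to 164 in si-SMaRT, and the fibroblast markers to 117 to 120 and 204 to 223. Among the fibroblast markers, Dcn alone had groups that did not overlap (25% of the list, against 40.7% of all rows tested). Dcn was higher in si-SMaRT, and limma with the GC trend removed called it as well (adjusted p = 0.0248). The smooth muscle markers summed to 2805 to 2885 RPKM in si-SCR and 2239 to 2648 in si-SMaRT, nearly all of it Acta2. No endothelial, adipocyte or Schwann marker was among the genes analysed, and of the blood markers Cd68 alone was, at 0.788 to 1.13 RPKM. A shift of these lists moves with the groups compared for the integrins, and its part in the integrin values was not tested. In RNA from whole cultures, fewer cells of a kind and less RNA per cell cannot be told apart.

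The integrin transcripts spanned more than 2 orders of magnitude per unit of length. Itgb1, the common beta chain, had the highest mean in either group, with 281 and 254 RPKM in the controls (si-SCR 1 and 2) and 224 and 304 in the depleted samples (si-SMaRT 1 and 2). Itga7, the muscle laminin receptor chain, followed with 200 and 236 RPKM in si-SCR and 231 and 122 in si-SMaRT, and was above Itgb1 in si-SMaRT 1. In si-SCR, Itgb1 was above 98.2% and Itga7 above 97.8% of all rows. A wide gap then separated these genes from the rest, since the mean of Itga7 in si-SCR was 6.99 times that of the next gene, Itgb5.

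The other laminin receptor chains were far below Itga7. Itga6 had 16.1 and 19.5 RPKM in si-SCR and 18.1 and 21.9 in si-SMaRT. Itga3 had 2.96 and 3.75 RPKM in si-SCR, with 6.27 in si-SMaRT 1 and 2.70 in si-SMaRT 2. Among the fibronectin receptor chains, Itga5 had 13.0 and 18.3 RPKM in si-SCR, then 26.8 in si-SMaRT 1 and 16.3 in si-SMaRT 2. The highest Itga5 value was therefore in si-SMaRT 1, while si-SMaRT 2 lay between the controls. Itga4 was the lowest gene measured, with 1.48 and 1.73 RPKM in si-SCR and 1.12 and 1.79 in si-SMaRT. It rested on 176 to 358 reads, and the exact Poisson interval (95%, counting error only) was 0.956 to 1.29 RPKM in si-SMaRT 1 and 1.61 to 1.98 in si-SMaRT 2. These intervals lie apart, so the spread between the depleted samples was larger than counting error even for this gene.

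The chains of the vitronectin receptors differed in level among themselves. Itgb5 had 30.4 and 31.9 RPKM in si-SCR and 33.8 and 21.8 in si-SMaRT. Itgav had 5.50 and 7.14 RPKM in si-SCR and 9.16 and 11.1 in si-SMaRT, so that both depleted samples were above both controls. Itgb3 had 2.81 and 3.44 RPKM in si-SCR and 3.53 and 2.23 in si-SMaRT. Of the other integrin genes, 6 of the 17 looked for had a row, and Itgb6, a further partner of Itgav, was the highest of them, with 10.5 and 8.85 RPKM in si-SCR and 5.87 and 7.82 in si-SMaRT. Itgb8, also a partner of Itgav, had 2.16 and 1.93 RPKM in si-SCR and 2.05 and 3.23 in si-SMaRT.

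**Figure D1:**
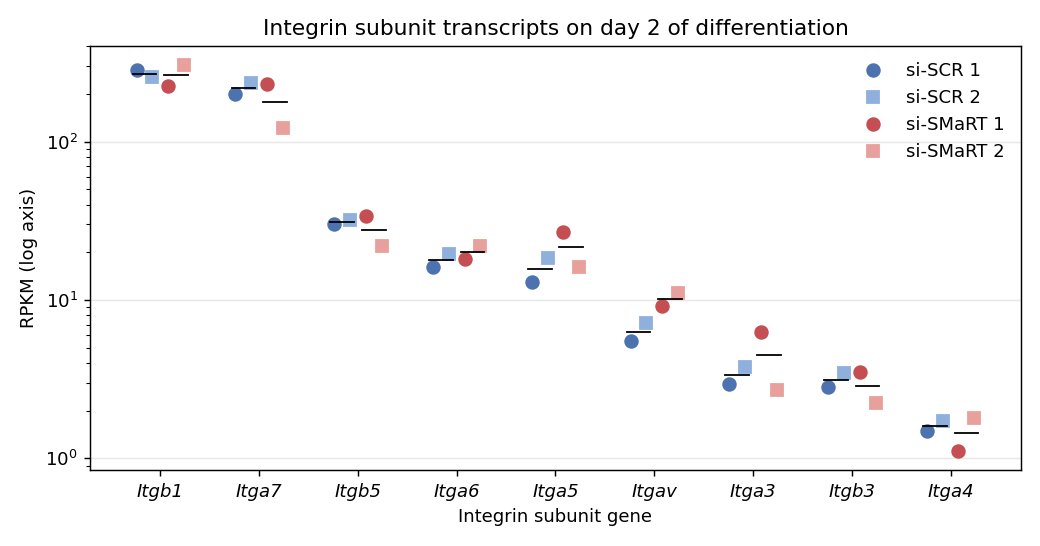
RPKM of the 9 integrin subunit genes in each sample, on a log axis, ordered by their mean in si-SCR. Circles and squares stand for samples 1 and 2 of a group and the short lines for group means (n = 2). Itgb1 and Itga7 lie above 120 RPKM in every sample, the other 7 genes lie below 34, and the groups are separate for Itgav only.

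From the highest mean in si-SCR to the lowest, the order was Itgb1, Itga7, Itgb5, Itga6, Itga5, Itgav, Itga3, Itgb3 and Itga4. Of the 8 neighbouring pairs in this order, Itga6 with Itga5 and Itga3 with Itgb3 overlapped between the si-SCR samples, so their order was within the spread. Over all 4 samples, Itgb1 with Itga7, Itgb5 with Itga6 and Itgav with Itga3 overlapped as well. Itga7 was above Itgb5, Itga5 above Itgav, and Itgb3 above Itga4 in any pair of samples. These levels are of the RNA of a whole gene, and splice forms of Itga6 and Itga7 were not separated. The order of genes also rests on the exon length by which RPKM divides, 8026 bases for Itga7 and 4081 for Itgb1. In recovered reads Itga7 was above Itgb1 in si-SCR, with 20270 and 26764 against 14528 and 14675.

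Itga7 made up most of the alpha chain RNA in every sample. Its share of the summed RPKM of the 6 alpha genes was 83.6% and 82.4% in si-SCR and 79.0% and 69.5% in si-SMaRT. Itga5 held 5.47% and 6.39% in si-SCR against 9.16% and 9.24% in si-SMaRT, and Itgav held 2.30% and 2.49% against 3.13% and 6.29%. Itga3 held 1.24% and 1.31% against 2.14% and 1.54%. The share of Itga7 was therefore lower, and those of Itga5, Itgav and Itga3 higher, in both depleted samples than in either control. These shares are parts of the same sum, so a lower share of Itga7 raises the others by itself. In RPKM, Itgav alone of these genes had groups that did not overlap, as 40.7% of all rows tested did. In si-SMaRT 2, Itga5 (16.3 RPKM) lay between the controls and Itga3 (2.70 RPKM) below both. The shares of Itga6 and Itga4 did not separate the groups. Itga6 held 6.75% and 6.81% in the controls and 6.17% and 12.5% in the depleted samples, and Itga4 held 0.621% and 0.603% against 0.381% and 1.02%. Among the 3 beta genes, Itgb1 held 89.4% and 87.8% in si-SCR and 85.7% and 92.7% in si-SMaRT.

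**Figure D2:**
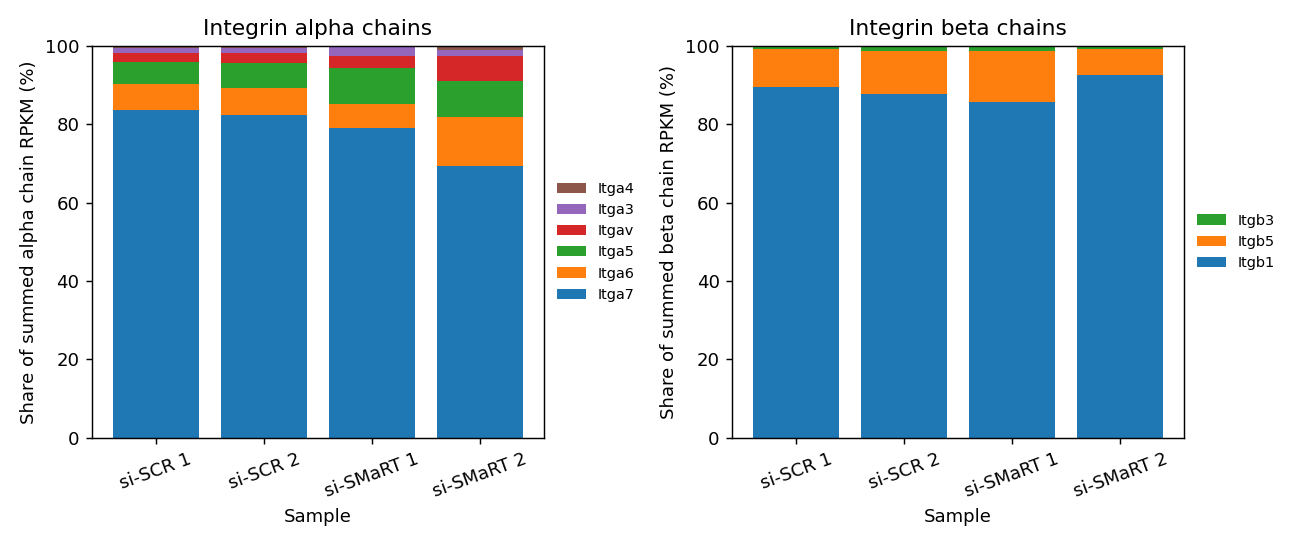
Share (%) of each subunit in the summed RPKM of the 6 alpha genes (left) and the 3 beta genes (right), with 1 bar per sample. Itga7 holds 69.5% to 83.6% of the alpha sum and is lowest in si-SMaRT 2, and Itgb1 holds 85.7% to 92.7% of the beta sum.

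A ratio of genes within a sample does not depend on how the samples were scaled to each other. The ratio of Itga7 to Itga5, the muscle laminin receptor chain over the fibronectin receptor chain, was 15.3 and 12.9 in si-SCR and 8.62 and 7.52 in si-SMaRT. On the log2 scale the si-SMaRT mean was 3.01 ± 0.14 and the si-SCR mean 3.81 ± 0.17 (SD, n = 2 each), a difference of -0.80 with groups that did not overlap. The two-sided exact permutation test gave p = 0.333, which is the smallest p that 2 samples against 2 can give. Leaving out any 1 sample moved the difference within -0.93 to -0.68, and it was -0.92 after removal of the GC trend described below. As the groups did not overlap, leaving out 1 sample could not turn its sign. In si-SMaRT 1 Itga5 was above both controls and Itga7 (231 RPKM) lay between them. In si-SMaRT 2 Itga7 was below both controls and Itga5 (16.3 RPKM) lay between them. How many other gene ratios separate the groups was not counted. The summed alpha chains over Itgb1, their shared partner, were 0.848 and 1.13 in si-SCR and 1.30 and 0.580 in si-SMaRT. Here the depleted samples lay on both sides of the controls, with a log2 difference of -0.17 (two-sided exact permutation p = 1), which became 0.42 without si-SMaRT 2 and 0.04 without si-SCR 2. The ratio of Itgb5 to Itgav was 5.52 and 4.47 in si-SCR and 3.69 and 1.97 in si-SMaRT, and it was not tested.

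The comparison of si-SMaRT with si-SCR asked which transcripts change when lnc-SMaRT is depleted. Of the 11642 rows, 11086 had a mean of at least 0.5 RPKM and were tested with limma on log2(RPKM + 0.1), a scale on which the change of a weakly expressed gene comes out too small, and a gene was called at a Benjamini-Hochberg adjusted p below 0.05. All 9 integrin genes passed the filter and 0 were called by limma, against 0.505% of all rows (56 of 11086, with 0.18% higher in si-SMaRT and 0.325% lower). At an unadjusted p below 0.05 the count was 1, Itgav (limma, unadjusted p = 0.0272), against 9.09% of all rows, and limma with voom on the recovered reads called 0 of the 9, against 0.983%. The si-SMaRT and si-SCR samples were apart for 1 of the 9 genes (11.1%), against 40.7% of all rows (20.2% higher in si-SMaRT and 20.4% lower). The median log2 fold change was -0.04 over the integrin genes, with 4 above 0 and 5 below, and 0.02 over all rows.

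Itgav had the largest difference of the 9 genes. Its mean was 6.32 ± 1.16 RPKM in si-SCR and 10.1 ± 1.35 in si-SMaRT (SD, n = 2), a log2 fold change of 0.68 ± 0.28 (SE) with a 95% interval of 0.09 to 1.26 (limma, adjusted p = 0.439). Itga5 had 15.7 ± 3.72 RPKM in si-SCR and 21.5 ± 7.47 in si-SMaRT (SD, n = 2), and its interval of -0.20 to 1.07 around 0.43 held 0 (limma, adjusted p = 0.733). For Itga3 the log2 fold change was 0.30, with an interval of -0.45 to 1.04 (limma, adjusted p = 0.867). These chains bind fibronectin, vitronectin and laminin, and of them Itgav alone had groups that did not overlap.

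The muscle laminin receptor chain was lower in one depleted sample only. Itga7 had 218 ± 25.7 RPKM in si-SCR and 177 ± 77.1 in si-SMaRT (SD, n = 2), and its log2 fold change was -0.37 with an interval of -1.03 to 0.29 (limma, adjusted p = 0.806). Itgb1 had 268 ± 19.0 RPKM in si-SCR and 264 ± 56.0 in si-SMaRT (SD, n = 2), and its log2 fold change of -0.04 had an interval of -0.63 to 0.55 (limma, adjusted p = 0.982). The sign for Itgb1 turned with quantile normalization between samples, which gave 0.16. The remaining log2 fold changes were 0.17 for Itga6, -0.14 for Itgb3, -0.17 for Itga4 and -0.19 for Itgb5, with adjusted p from 0.893 to 0.935 (limma). Each of these intervals held 0, and the lowest bound was -0.86 for Itga4 and the highest 0.73 for Itga6, so that changes of up to these sizes lay within the intervals.

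**Figure D3:**
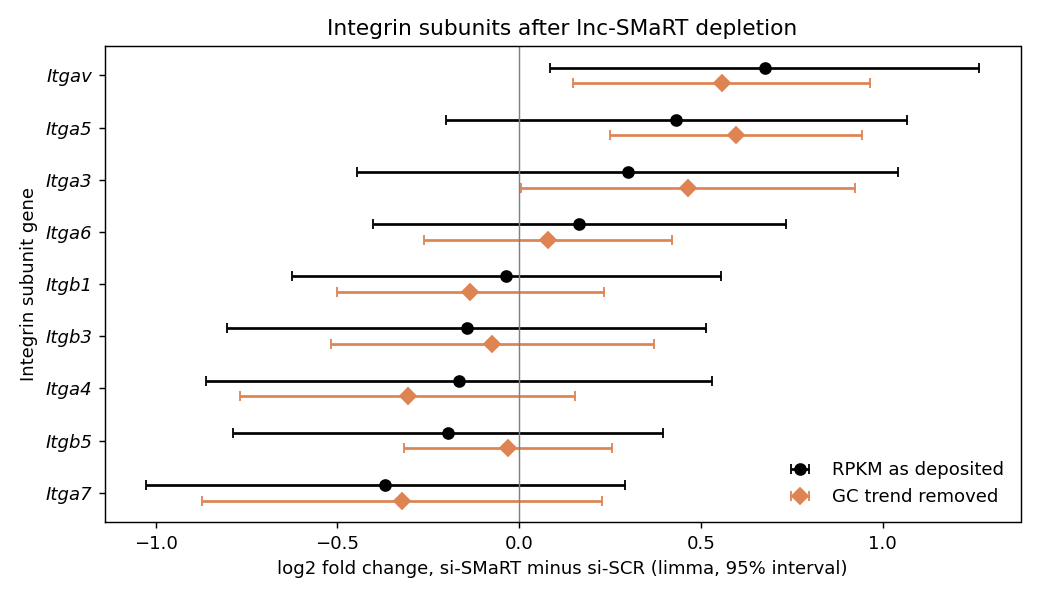
log2 fold change (si-SMaRT minus si-SCR) of the 9 integrin genes with its 95% interval from limma (n = 2 per group), for the RPKM as deposited (circles) and after removal of the trend with GC content (diamonds). With the deposited values the interval lies above 0 for Itgav only, and with the trend removed it does so for Itgav, Itga5 and Itga3, with adjusted p of 0.112, 0.0624 and 0.198.

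The difference between the depleted samples followed the base composition of the genes. Over 10398 rows, the difference si-SMaRT 2 minus si-SMaRT 1 had a Spearman rho of -0.844 with the GC content of the exons, against 0.354 for si-SCR 2 minus si-SCR 1, and the difference of the group means had -0.309. These correlations are across genes that share the same libraries and describe those libraries. The median of si-SMaRT 2 minus si-SMaRT 1 was 0.48 in the third of rows with less than 46.0% GC and -0.60 in the third with more than 52.3%. The integrin genes lay on both sides. Itga4, Itgav, Itgb1 and Itga6, with 41.5% to 45.2% GC, were all higher in si-SMaRT 2 than in si-SMaRT 1, and Itga7, Itgb3, Itgb5, Itga5 and Itga3, with 51.3% to 57.0% GC, were all lower. Over the 9 genes rho was -0.833 within si-SMaRT and 0.367 within si-SCR.

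**Figure D4:**
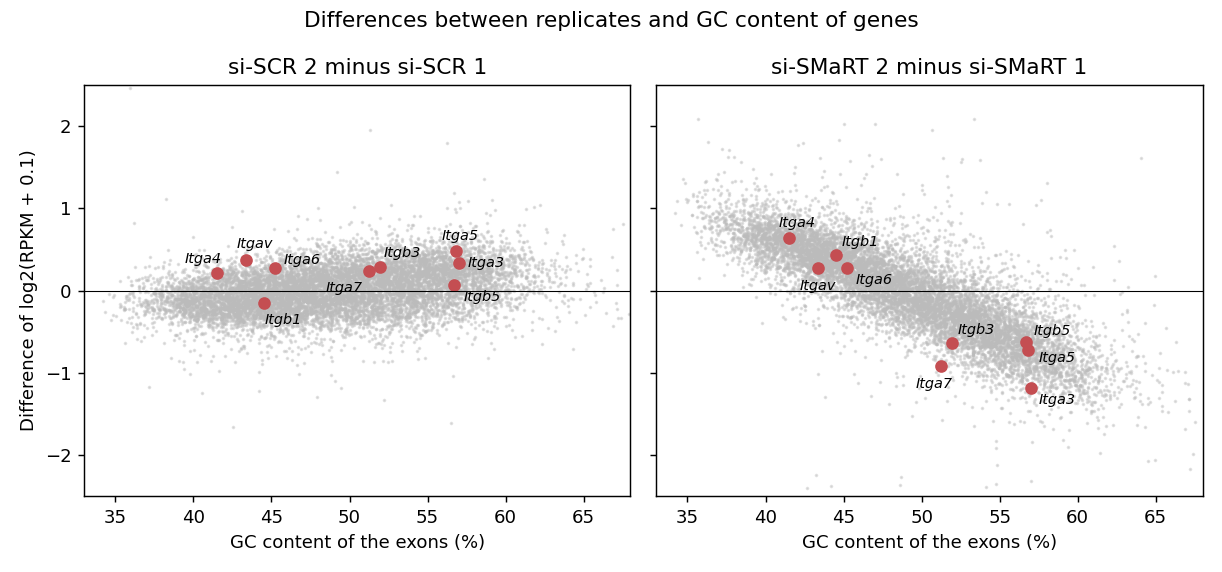
Difference of log2(RPKM + 0.1) between the samples of a group against the GC content (%) of the exons, for si-SCR (left) and si-SMaRT (right), with 10398 rows in grey and the 9 integrin genes in red. Points beyond the vertical axis (2 on the left, 36 on the right) and the horizontal axis (10 in each) are not drawn. In si-SMaRT the 4 integrin genes below 46.0% GC lie above 0 and the other 5 lie below it.

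When a loess curve over GC content was subtracted from each sample, the median absolute difference between the si-SMaRT samples over the integrin genes went from 0.64 to 0.08, and that between the si-SCR samples from 0.27 to 0.24. The curve was fitted to each sample's deviation from the mean of the row over all 4 samples. Any group difference that went with GC content was therefore subtracted too. Over all rows with a GC value the difference within si-SMaRT went from 0.42 to 0.18. Itgb5 went from -0.63 to 0.01, Itgb1 from 0.44 to 0.06 and Itga5 from -0.72 to -0.08. After removal Itga7 had the largest difference of the 9 genes, -0.75 against -0.92 before, followed by Itga3, which had the largest before and went from -1.18 to -0.53. The muscle marker genes Acta1 and Ckm also stood lower in si-SMaRT 2 than in si-SMaRT 1, with 1274 against 2553 RPKM and 201 against 380. Of the 10 muscle markers Tnnt3 alone was higher in si-SMaRT 2, with 882 against 767 RPKM. These marker values are RPKM as deposited, with the GC trend still in them, and Acta1 and Ckm have 57.0% and 53.9% GC. The part of the marker difference in the Itga7 value was not tested.

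Removal of the trend brought no integrin gene past the threshold, while 4.6% of the 10398 rows passed it. Itga5 came to a log2 fold change of 0.60 (limma, adjusted p = 0.0624), Itgav to 0.56 (0.112), Itga3 to 0.47 (0.198), Itga7 to -0.32 (0.438) and Itga4 to -0.31 (0.380). The calls depended on single samples. In the study's read statistics, si-SMaRT 1 lost a much larger part of its read pairs to the rRNA and tRNA filter than any other RNA-Seq sample. The part of this loss in the values was not tested. Without si-SMaRT 1, where 26.3% of all rows passed, Itgav (0.81, limma, adjusted p = 0.00219), Itga7 (-0.83, 0.00321) and Itgb5 (-0.51, 0.0445) passed. Without si-SMaRT 2, where 8.5% of all rows passed, Itga5 (0.79, limma, adjusted p = 0.00436) and Itga3 (0.89, 0.00601) passed, while Itga7 was at 0.09 and Itgb5 at 0.12. These fits take the spread of the lone depleted sample from the si-SCR pair. Without si-SCR 1 or without si-SCR 2, where 0.208% and 0.252% of all rows passed, none of the 9 did.

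Ligands of these integrins had 24 genes tested, of which 0 were called by limma. An unadjusted p below 0.05 was found for 6 (limma, 9.09% of all rows had one), and voom called 1 (0.983% of all rows). All 6 (Thbs1, Cyr61, Vcam1, Ctgf, Ltbp1 and Fn1) were higher in si-SMaRT, and the median of the list was 0.13. Thbs1, which encodes the matrix protein thrombospondin 1, had 97.9 and 144 RPKM in si-SCR and 300.3 and 242 in si-SMaRT, which gave a log2 fold change of 1.18 ± 0.29 (SE, limma, adjusted p = 0.0854), and voom called it. Fn1, which encodes fibronectin, had 71.9 and 105 RPKM in si-SCR and 186 and 107 in si-SMaRT. Spp1, which encodes osteopontin, was the most abundant ligand, with 467 and 367 RPKM in si-SCR and 367 and 396 in si-SMaRT, so its groups differed by less than their spread. Postn, which encodes periostin, had 82.3 and 69.2 RPKM in si-SCR and 43.8 and 67.4 in si-SMaRT. Of the genes chosen after their values were seen, Cyr61, a matricellular protein gene, had 30.6 and 42.6 RPKM in si-SCR and 78.6 and 68.8 in si-SMaRT (limma, adjusted p = 0.137), and Vcam1, the cell surface ligand of Itga4, had 7.77 and 6.0 against 12.1 and 13.2 (adjusted p = 0.238). With the GC trend removed, 5 of the 24 passed, against 4.6% of rows: Thbs1, Cyr61, Ctgf and Ltbp1, which were higher in si-SMaRT, and Postn, which was lower.

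The adhesome is the set of proteins that act at integrin tails inside the cell, not all of which bind the tails themselves. It had 38 genes tested, of which 0 were called by limma or by voom. An unadjusted p below 0.05 was found for 3, against 9.09% of all rows (limma). The median log2 fold change was 0.16, with 30 genes above 0 and 8 below, where all rows had 5795 above and 5291 below. Itgb1bp2, which encodes melusin, a muscle protein that binds the tail of Itgb1, had 130.2 and 105 RPKM in si-SCR and 78.9 and 68.1 in si-SMaRT, which gave a log2 fold change of -0.68 ± 0.27 (SE, limma, adjusted p = 0.398). The actin crosslinker gene Flna had 149.7 and 184 RPKM in si-SCR and 233 and 144 in si-SMaRT, and the vinculin gene Vcl had 138 and 173 against 171 and 175. Lims1, which encodes the adaptor PINCH1, had 85.3 and 77.7 RPKM in si-SCR and 67.9 and 109 in si-SMaRT. For these last genes the groups overlapped. Actn1, an actinin gene, and Dock1, a guanine exchange factor gene needed for myoblast fusion, were chosen after their values were seen. Actn1 had 25.4 and 33.7 RPKM in si-SCR and 49.1 and 41.8 in si-SMaRT, Dock1 had 4.90 and 5.33 against 9.16 and 8.03, and both passed with the GC trend removed, as did 4.6% of rows (limma, adjusted p = 0.0406 and 0.0412).

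Membrane proteins that associate with integrins, among them tetraspanins, syndecans, caveolins and ADAM proteases, had 18 genes tested. Of the 18, 0 were called by limma or by voom and 5 had an unadjusted p below 0.05 (limma), against 9.09% of all rows. The median was 0.02, as over all rows. The tetraspanin gene Cd63 was the most abundant, with 637 and 622 RPKM in si-SCR and 525 and 534 in si-SMaRT, which gave a log2 fold change of -0.25 ± 0.28 (SE, limma, adjusted p = 0.857), and Cd81 had 201 and 189 against 165 and 133. Both had groups that did not overlap, as had 9 of the 18 genes and 40.7% of all rows tested. Cd82 had 146 and 149.7 RPKM in si-SCR and 183 and 125 in si-SMaRT, and the syndecan gene Sdc2 had 151 and 138 against 138 and 197, so that these groups overlapped. The other genes were chosen after their values were seen. Cav3, the muscle caveolin gene, had 118 and 106 RPKM in si-SCR and 60.2 and 51.0 in si-SMaRT, which gave a log2 fold change of -1.01 ± 0.26 (SE, limma, adjusted p = 0.122). Adam12, a protease gene of fusing myoblasts, had 5.47 and 8.08 against 12.9 and 13.0 RPKM (limma, adjusted p = 0.202). With the GC trend removed, where 4.6% of rows passed, so did Cav3, Adam12 and Sdc3, with adjusted p of 0.0370, 0.0313 and 0.0242 (limma).

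**Figure D5:**
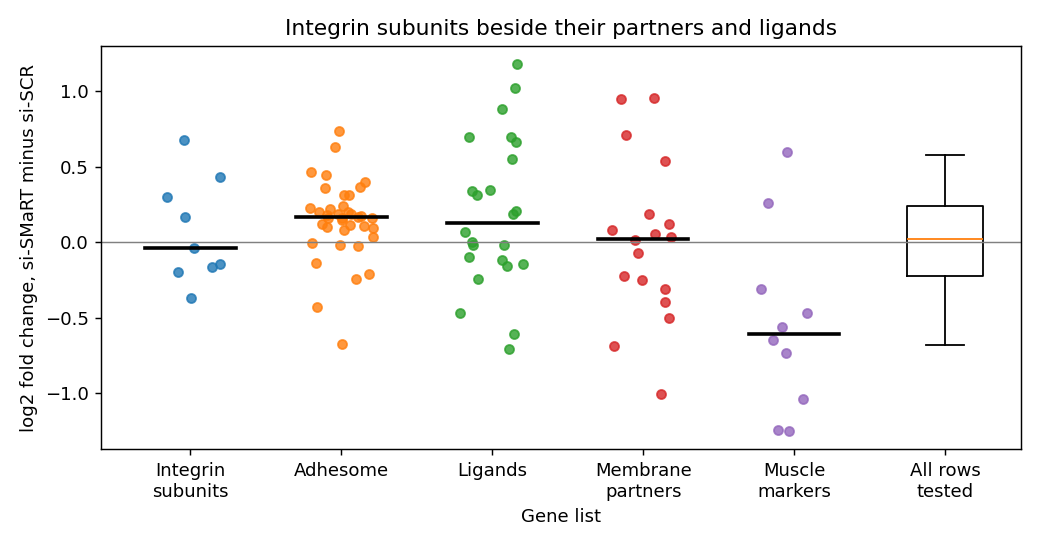
log2 fold change (si-SMaRT minus si-SCR) of the tested genes of each list, with 1 point per gene and a black line at the median. The box shows the quartiles of all 11086 rows, with whiskers from the 5th to the 95th percentile. The integrin genes lie between -0.37 and 0.68 with a median of -0.04, and the muscle markers have a median of -0.61.

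The pull-down asked which RNAs are bound by lnc-SMaRT. Among 345 peaks of the lnc-SMaRT library and 336 of the LacZ control, 0 overlapped an exon of any of the 10 integrin genes on its strand. How many other genes had such a peak was not counted. The 0 therefore does not show that integrin RNAs are unbound. When introns were included, 1 integrin gene had a peak in each library, and it was the same 200-base bin at chr9:118674801-118675000 on the plus strand of GRCm38, in an intron of Itga9. Its listed p was 0.00664 with the lnc-SMaRT probes and 0.00176 with the LacZ probes. With 1 library per pull-down these values have no replicate check.

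The 9 genes lie on chromosomes 2, 8, 10, 11, 15 and 16 of the GRCm38 assembly with exons of 3553 to 13978 bases in GENCODE M21. Exons of Itga4, Itgav and Itga7 share 1124, 634 and 9 bases with the antisense genes Cerkl, Gm13684 and Mettl7b. The library kit keeps the strand, and whether it was used in counting is not given in the sources used here, so reads of Itga4 and Itgav could include reads of their antisense partners.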

How the data were processed

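Total RNA was sequenced from 4 samples of C2C12 cells. RPKM values were deposited by the authors, who used Trimmomatic for trimming and Bowtie 2 to discard rRNA and tRNA, aligned to GRCm38 with TopHat2 and Ensembl 77, counted with htseq-count, filtered genes on low CPM, and applied TMM and edgeR. They also deposited the p-value of each Piranha peak. Their methods name the input as the covariate for LacZ peaks, and either the input or LacZ for lnc-SMaRT peaks, without saying which of these lists was deposited. Whole reads behind the RPKM were recovered for 100% of rows (tolerance 1e-05). The RPKM give them only up to a common factor per row, which was set from gene length. For 5644 of the 11642 rows the gene model's length matched without a factor. Effective library sizes, by which the RPKM were scaled, of 11291255 to 14312935 limit precision. limma 3.58.1 (R 4.3.3) was fitted to log2(RPKM + 0.1) for rows averaging 0.5 RPKM or more, with a trended prior and a threshold of 0.05, and was tested on simulated data. GC content came from GENCODE M21 exons (93.8% of tested rows), with a loess span of 0.3. Peaks were intersected with bedtools 2.31.1. The alternatives were other pseudocounts, filters, normalizations, blocks, voom and omitted samples. Members and lists were chosen with earlier results of these data known. All integrin genes, lnc-SMaRT, and genes past the threshold or the 4 most abundant of each other list were named by rule. The limma p-values set a group difference against the spread between samples, part of which is taken from the prior shared by all rows. Peak p-values come from 1 library per pull-down and hold no spread between replicates. Read intervals cover counting error only.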

Additional observations from a re-analysis of the deposited data

How the results depend on the processing

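Of 105 values for single integrin genes under alternatives that kept all samples, 102 kept their direction and their side of the threshold. The exceptions were Itgb1, at 0.16 with quantile normalization, and Itga5 (0.60) and Itgav (0.56), which passed with the GC trend removed together with a crossed block. The count of integrin genes called was then 2 of 9, in a fit where 1528 of 10398 rows passed. The crossed block was chosen after the data were seen. Leaving out 1 sample gave 0 to 3 integrin genes and 23 to 2911 rows past the threshold, and 24 of 36 single values stayed as they were, 7 reversed and 5 came to pass. The log2 fold changes then ran from -0.83 to 0.091 for Itga7, -0.47 to 0.18 for Itgb3, -0.29 to 0.89 for Itga3, -0.51 to 0.12 for Itgb5, -0.48 to 0.15 for Itga4 and -0.25 to 0.18 for Itgb1 (0.04 without si-SCR 1, 0.18 without si-SMaRT 1). The median of the integrin genes was -0.0039 to 0.12 (the lower without si-SCR 2), and 0.16 with quantile normalization, which moved the median of all rows by 0.006. The log2 ratio of the alpha sum to Itgb1 ran from -0.75 to 0.42.

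Against 56 rows called, there were 37 with quantile normalization, 109 with voom and 478 with the GC trend removed. The samples are known to share only a replicate number, and the deviations of same-numbered samples had a correlation of -0.362. With the replicate block 96 rows were called, and 153 with the GC trend removed as well. A crossed block, chosen after seeing the data, gave 487 rows, and 1528 with the GC trend removed. The adhesome, ligand and membrane partner lists, with 0 calls each, had 2, 5 and 3 with the GC trend removed, 9, 10 and 6 with the crossed block too, and 0 to 9, 0 to 9 and 0 to 6 when a sample was left out. The replicate block with the GC trend removed called 1 ligand (Cyr61) and 1 membrane partner (Sdc3), the crossed block alone 3 of each, and voom 1 ligand. The cause of these changes was not tested. With introns included, each pull-down list had a peak in 1 integrin gene. With a minimum mean of 5 RPKM, Itga3, Itgb3 and Itga4 were not tested.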
